A study of Mus musculus with 3 samples.

Results

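Olig1, Olig2, Sox10, Sox8, Nkx2-2, Nkx6-2, Tcf7l2 and Myrf are the transcription factors best known for making and keeping oligodendrocytes, and the 8 genes were taken by name from the 28676 genes of the table. Their unique molecular identifiers (UMIs, each marking a captured RNA molecule) were followed through 3 stages of the lineage: precursors with a UMI of Pdgfra, newly formed oligodendrocytes with a UMI of Enpp6 or Bmp4, and mature oligodendrocytes with UMIs of at least 3 of the 5 genes Mog, Mag, Mobp, Opalin and Ermn. None of the 8 factors was used to find a stage. All 8 had at least 20 UMIs in the stages together.

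Single cells of the medial vestibular nucleus (MVN), the brainstem nucleus that receives input from the balance organ of the inner ear, were sequenced 1 day after unilateral labyrinthectomy (UL), the destruction of the inner ear of a single side, in C57BL/6 mice (C57BL/6J in the study's methods) operated on at postnatal day 20. The libraries were the ipsilateral MVN of the UL mice (ULI), the contralateral MVN of the same UL mice (ULC) and the MVN of control mice, in which the bone over the middle ear was opened and the labyrinth left in place. Cells were combined from 11 UL mice and 10 control mice. Every condition was 1 library, and no difference between libraries rests on replicates. The source names separate the 3 groups, while the label for treatment gives the same operation to every sample.

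In the brain the lineage runs from dividing precursors through a short premyelinating step to cells that wrap axons in myelin. Olig1 and Olig2 are basic helix-loop-helix factors that specify and maintain the lineage, Sox10 and Sox8 are related SoxE factors, Nkx2-2 and Nkx6-2 are homeodomain factors, Tcf7l2 is the lineage's main nuclear partner of beta-catenin in Wnt signalling, and Myrf is a membrane-bound factor that is cut to release its DNA-binding part and switch on myelin genes. Levels are given as CPM, the counts of a gene scaled to the same total (1000000 UMIs) in each stage and library after summing over cells, with exact 95% Poisson intervals. These intervals, and those of shares and ratios below, cover counting error only.

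The 6019 cells of the lineage clusters numbered 2290 in ULI, 2027 in ULC and 1702 in control. Cells that met the rule of exactly 1 stage were 439, 240 and 227 precursors, 610, 617 and 50 newly formed cells, and 580, 615 and 419 mature cells in ULI, ULC and control. Newly formed cells were thus 26.6% (24.8 to 28.5) of the lineage in ULI and 30.4% (28.4 to 32.5) in ULC, against 2.94% (2.19 to 3.85) in control. In control 901 cells, 52.9% of its lineage, met both the newly formed and the mature rule, with a median of 14287 UMIs, and such cells numbered 329 in ULI and 177 in ULC. They were kept apart from both stages, so the mature control cells used here were shallow, with a median of 1023 UMIs, beside 812.5 in ULI and 758 in ULC. Newly formed cells had a median of 2647 UMIs in ULI, 663 in ULC and 4528.5 in control. Counted by cluster in place of single markers, the clusters with the newly formed marker list highest held 39.3% of the lineage in ULI and 45.0% in ULC, against 3.41% in control.

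The stages were compared on wider marker lists from which the genes of the stage rules were left out. The full lists had also named the clusters of the lineage, so this is a description and no independent check. Summed over 6 precursor markers other than Pdgfra, precursors read 12111, 13858 and 12429 CPM in ULI, ULC and control, and mature cells at most 40.6 CPM. Newly formed cells still read 3034, 3069 and 3785 CPM of these precursor markers. Summed over 5 markers of newly formed cells other than Enpp6 and Bmp4, newly formed cells read 7603, 7644 and 8745 CPM, and precursors at most 2656 CPM. Summed over 4 mature markers outside the rule, mature cells read 14497, 12502 and 13293 CPM, and precursors at most 77.2 CPM. Newly formed cells read 48.5, 68.4 and 420 CPM of these mature markers, the highest in control. Among markers of other cells, 6 choroid plexus genes summed to 305, 1191 and 40.3 CPM in precursors, 159.9, 570 and 39.1 CPM in newly formed cells and 167, 505 and 34.2 CPM in mature cells of ULI, ULC and control, so they were highest in ULC at every stage. The choroid plexus-like cells themselves read at most 11.01 CPM of Olig1 and 7.06 CPM of Olig2. Markers of Schwann cells, the myelinating cells of peripheral nerve that also use Sox10, summed to at most 64.0 CPM in any stage. The 3 division markers Mki67, Top2a and Cdk1 summed to 6.66 and 10.1 CPM in ULI and ULC precursors, against 425 CPM in control precursors. The part of any of these in the values below was not tested.

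Promoters of 5 of the 8 genes are held in RefSeq's table of GRCm38.p6, from 250 bases before to 50 bases after the start of transcription. Those of 4 genes are printed because each stands for a different course through the lineage: Olig2 was highest in precursors, Nkx2-2 was present in precursors and newly formed cells, Tcf7l2 peaked in newly formed cells and Nkx6-2 was highest in mature cells. They lie at chr16:91225300-91225599 (+ strand, Olig2), chr2:147186353-147186652 (- strand, Nkx2-2), chr19:55741560-55741859 (+ strand, Tcf7l2) and chr7:139582748-139583047 (- strand, Nkx6-2). Each is written 5′ to 3′ on the strand of the gene, and capitals mark the E-box CANNTG to which bHLH factors such as Olig1 and Olig2 bind, the Sox core AACAAT and the Tcf core CTTTGA, searched on both strands.
Olig2: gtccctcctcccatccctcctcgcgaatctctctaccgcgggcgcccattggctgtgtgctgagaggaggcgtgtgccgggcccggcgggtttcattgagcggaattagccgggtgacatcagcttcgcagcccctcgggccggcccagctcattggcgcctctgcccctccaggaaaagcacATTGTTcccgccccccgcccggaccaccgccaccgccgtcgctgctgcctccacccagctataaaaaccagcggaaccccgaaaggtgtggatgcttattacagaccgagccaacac
Nkx2-2: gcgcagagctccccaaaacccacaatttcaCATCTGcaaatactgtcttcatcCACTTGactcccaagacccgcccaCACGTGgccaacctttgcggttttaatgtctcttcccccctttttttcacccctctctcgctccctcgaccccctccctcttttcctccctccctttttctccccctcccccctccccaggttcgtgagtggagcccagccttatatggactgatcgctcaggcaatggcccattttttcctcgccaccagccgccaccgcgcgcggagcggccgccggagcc
Tcf7l2: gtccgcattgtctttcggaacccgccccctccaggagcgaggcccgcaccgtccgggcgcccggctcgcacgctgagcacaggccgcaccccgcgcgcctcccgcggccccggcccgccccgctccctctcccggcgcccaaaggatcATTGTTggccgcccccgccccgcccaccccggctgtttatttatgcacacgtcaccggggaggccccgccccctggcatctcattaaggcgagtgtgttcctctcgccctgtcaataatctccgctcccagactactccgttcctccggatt
Nkx6-2: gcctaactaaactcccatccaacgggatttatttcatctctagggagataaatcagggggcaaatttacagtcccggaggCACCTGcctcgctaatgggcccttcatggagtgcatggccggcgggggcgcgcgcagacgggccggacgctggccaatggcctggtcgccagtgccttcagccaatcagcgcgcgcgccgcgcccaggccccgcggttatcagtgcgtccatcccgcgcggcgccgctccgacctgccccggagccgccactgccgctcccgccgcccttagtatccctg
The Nkx2-2 promoter held 3 E-boxes and that of Nkx6-2 held 1, and the Olig2 and Tcf7l2 promoters held 1 Sox core each and no E-box. No match to the Tcf core was found in any of the 4, and no matches overlapped. Of 32851 promoters, 72.3% held an E-box, 10.7% the Sox core and 16.0% the Tcf core. The printed Tcf7l2 promoter had 34 CG dinucleotides, a number reached by 7.73% of all promoters, and the Olig2, Nkx6-2 and Nkx2-2 promoters had 25, 32 and 17, beside a median of 7. RefSeq's table holds a further Tcf7l2 start downstream, whose promoter (chr19:55895071-55895370, + strand, not printed) had 7 CG dinucleotides, a number reached by 52.1% of promoters, and no match to any of the 3 motifs. Letters alone do not show a bound site.

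Across the stages the 8 factors fell into distinct courses, with the same direction in the 3 libraries for most. By CPM, Olig1, Olig2 and Sox10 were highest in precursors in 3 of 3 libraries. Tcf7l2 and Myrf were highest in newly formed cells in 3 of 3, Myrf by a margin within its counting error over mature cells, and Nkx6-2 was highest in mature cells. Nkx2-2 and Sox8 were lowest in mature cells in 3 of 3, and their highest stage differed between libraries: precursors in ULC and newly formed cells in ULI and control for Nkx2-2, and newly formed cells in control alone for Sox8. Scaling by TMM, which centres the bulk of the genes, raises later stages against earlier ones. With it the highest stage became newly formed cells for Sox10 in ULI and ULC and for Nkx2-2 in ULC. It became mature cells for Myrf in 3 of 3 libraries and for Olig1 in ULC.

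**Figure D1:**
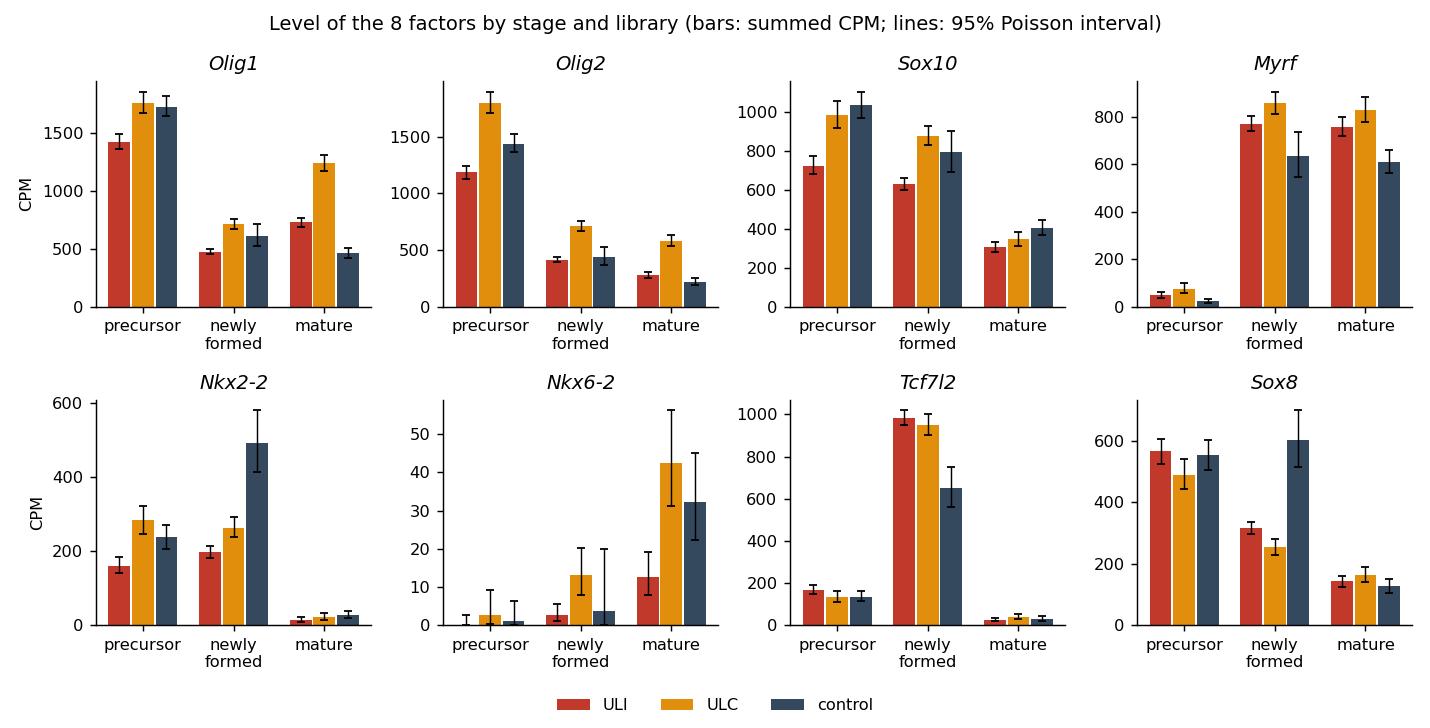
CPM of each of the 8 genes (vertical axes, each with its own scale) in precursor, newly formed and mature cells, for ULI, ULC and control from left to right; bars are sums over cells and lines exact 95% Poisson intervals. Tcf7l2 stands out in newly formed cells (983, 951 and 651 CPM) and Myrf is low only in precursors (48.8, 75.6 and 21.3 CPM).

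Olig1 and Olig2 lie next to each other on chromosome 16 (Olig2 at 91225457 to 91228677 and Olig1 at 91269772 to 91271933, both on the + strand, GRCm38). Olig2 read 1185, 1800 and 1439 CPM in precursors, 414, 710 and 441 CPM in newly formed cells and 279, 582 and 219 CPM in mature cells of ULI, ULC and control. Olig1, its partner with a part in later maturation, read 1423, 1758 and 1725 CPM in precursors, 475, 712 and 612 CPM in newly formed cells and 725, 1237 and 462 CPM in mature cells. Both were lower in newly formed cells than in precursors in every library, and they differed after that. The log2 ratio of newly formed over precursor cells was -1.52, -1.34 and -1.71 for Olig2 and -1.58, -1.30 and -1.50 for Olig1 in ULI, ULC and control. From newly formed to mature cells Olig2 went lower still by CPM, at -0.57, -0.29 and -1.01, beside a median gene at -0.61, -0.57 and -0.66. The Olig1 ratio was 0.61 and 0.80 in ULI and ULC and -0.41 in control. With TMM scaling, Olig2 in ULC and Olig1 in control were higher in mature than in newly formed cells, so these 2 directions depend on the scaling.

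The changing balance of the pair can be read within a library, where depth and scaling cancel. Olig1 UMIs per Olig2 UMI were 1.20 (1.12 to 1.28), 0.977 (0.907 to 1.05) and 1.20 (1.11 to 1.29) in precursors and 2.60 (2.34 to 2.89), 2.12 (1.94 to 2.33) and 2.11 (1.803 to 2.48) in mature cells of ULI, ULC and control. The interval of mature cells lay above that of precursors in each library. In newly formed cells the ratio was 1.15, 1.003 and 1.39. In single cells thinned to 1000 UMIs, Olig1 was seen in 73.5%, 70.9% and 76.0% of precursors and in 41.2%, 58.5% and 26.5% of mature cells, and Olig2 in 62.2%, 75.1% and 67.3% of precursors and 21.9%, 40.2% and 15.9% of mature cells. Cells below 1000 UMIs were left out there, 32, 27 and 19 precursors and 352, 451 and 193 mature cells. Before thinning, the Olig1 shares were 89.1%, 85.4% and 93.0% in precursors and 47.6%, 55.1% and 33.2% in mature cells, and in microglia-like cells they were 1.98%, 2.28% and 2.34% at median depths of 2236, 2358 and 3068 UMIs.

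Of the SoxE factors, Sox10, which binds the enhancers of myelin genes, declined in 2 steps by CPM. It read 725, 987 and 1035 CPM in precursors, 630, 878 and 793 CPM in newly formed cells and 306, 347 and 404 CPM in mature cells. The first step was small (-0.20, -0.17 and -0.38), beside a median gene at -0.28. With TMM scaling, Sox10 was higher in newly formed cells than in precursors in ULI and ULC, so this step depends on the scaling. The second step was near 2-fold (-1.04, -1.34 and -0.97), against a median gene at -0.58 in that second comparison. Sox8, a paralogue with an overlapping role, read 565, 489 and 553 CPM in precursors, 315, 254 and 601 CPM in newly formed cells and 142, 164 and 126 CPM in mature cells. Sox8 in newly formed cells was thus below the precursor level in ULI and ULC (-0.84 and -0.94) and at it in control (0.12, interval -0.14 to 0.38). Mature cells were the lowest stage for both paralogues in all 3 libraries.

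The homeodomain factors ran in opposite directions. Nkx2-2, a factor of precursors with a part in their differentiation, read 160, 282 and 237 CPM in precursors and 198, 263 and 491 CPM in newly formed cells. In mature cells only 24, 24 and 28 Nkx2-2 UMIs remained, 13.7, 21.2 and 26.6 CPM. Mature over newly formed cells gave a log2 ratio of -3.85 (-4.50 to -3.26), -3.63 (-4.29 to -3.04) and -4.21 (-4.85 to -3.61), a 14.4-, 12.4- and 18.5-fold lower level. Nkx6-2, a factor of myelinating cells, had 0, 2 and 1 UMIs in precursors, 8, 19 and 1 in newly formed cells and 22, 48 and 34 in mature cells. That is 0, 2.52 and 1.12 CPM, then 2.73, 12.99 and 3.56 CPM, then 12.6, 42.5 and 32.3 CPM. Its counts were small and its rise was seen in every library: mature over newly formed cells gave 2.20 (0.98 to 3.58), 1.71 (0.92 to 2.56) and, with 1 UMI in newly formed control cells, 3.18 (0.61 to 8.53). Against ULI precursors, which had no UMI and were set to 3 (2.22 CPM), mature ULI cells were higher by 2.50 on the log2 scale. The exact interval of that comparison began at 2.08.

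Tcf7l2 was highest in newly formed cells and lowest in mature cells. It read 167, 135 and 135 CPM in precursors, 983, 951 and 651 CPM in newly formed cells and 23.4, 37.2 and 30.4 CPM in mature cells of ULI, ULC and control. Newly formed cells were 5.88-, 7.05- and 4.81-fold above precursors, and mature cells were 42.0-, 25.6- and 21.4-fold below newly formed cells. In control, 1 cell supplied 21.3% of the 183 Tcf7l2 UMIs of the 50 newly formed cells, and the highest cell supplied 1.74% in ULI and 4.10% in ULC. Among newly formed cells with at least 1000 UMIs it read 961, 884 and 670 CPM. Taken by cluster, newly formed cells read 1032, 872 and 879 CPM and mature cells 24.6, 29.6 and 7.37 CPM. Where cells that met several rules counted in each stage, newly formed over precursor cells gave a log2 ratio of 1.14 and 1.02 in ULI and ULC. In control, with 981 cells then counted as newly formed, it turned to -1.07. The higher level of newly formed control cells was thus seen with those cells left out, and not with them counted in. It was also seen by cluster, where control cells of precursor cluster 5 read 138 CPM.

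Myrf was low in precursors and high in both later stages. It read 48.8, 75.6 and 21.3 CPM in precursors, from 66, 60 and 19 UMIs, 771, 858 and 637 CPM in newly formed cells and 759, 832 and 611 CPM in mature cells. The log2 ratio of newly formed over precursor cells was 3.98 (3.63 to 4.36), 3.50 (3.13 to 3.903) and 4.90 (4.22 to 5.67). By CPM, mature and newly formed cells were within 1.04-fold of each other in each library, with intervals that crossed 0 (-0.12 to 0.08, -0.17 to 0.08 and -0.30 to 0.19). The median gene of that comparison was at -0.58. With TMM scaling, Myrf was higher in mature than in newly formed cells in each library, so this equality depends on the scaling. In control, 1 cell supplied 24.6% of the Myrf UMIs of newly formed cells. Tcf7l2 and Myrf, both higher in newly formed cells than in precursors, differed in the next step.

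Counted over the 8 factors, a change past 2-fold in the same direction in 3 of 3 libraries was a rise of 2 (Myrf and Tcf7l2) and a fall of 2 (Olig1 and Olig2) of 7 measured between precursors and newly formed cells, where 4.17% of 7923 measured genes rose and 12.6% fell. Between newly formed and mature cells 1 of 8 rose (Nkx6-2, background 7.3%) and 2 fell (Nkx2-2 and Tcf7l2, background 18.1%). Between precursors and mature cells 2 rose (Myrf and Nkx6-2, background 6.7%) and 5 fell (Olig2, Sox10, Nkx2-2, Tcf7l2 and Sox8, background 33.6%). A gene was measured with at least 20 UMIs in the 2 sums of every library. The median gene was itself at -0.28, -0.58 and -0.92 in the 3 comparisons, and the median factor at -0.20, -0.81 and -1.68. With TMM scaling, which centres the bulk of the genes, 1 of the 5 falls past 2-fold remained in 3 of 3 libraries (Nkx2-2, at -2.66, -2.84 and -2.17), Sox10 stood at -0.36, -0.62 and -0.37, and both falls of Olig1 and Olig2 on leaving the precursor stage lost the mark in ULC only (-0.81 and -0.85).

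**Figure D2:**
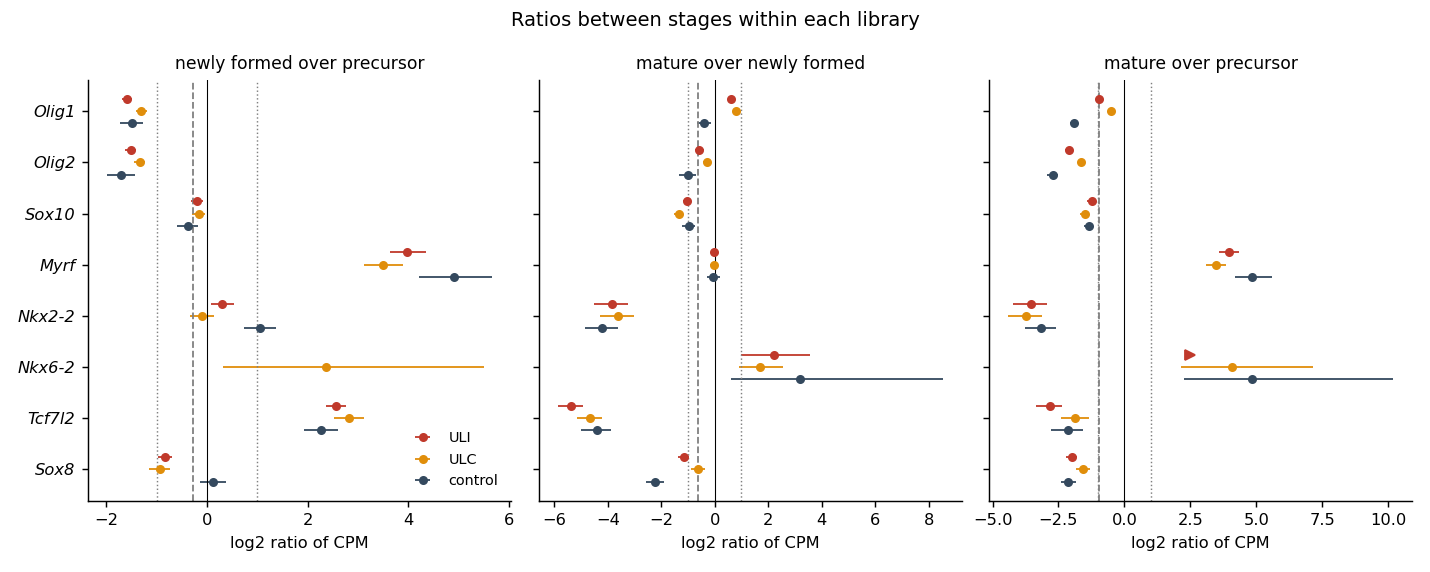
Log2 ratio of CPM between stages for each gene, with ULI, ULC and control from top to bottom, exact binomial 95% intervals, dotted lines at 2-fold and a dashed line at the median of all measured genes (-0.28, -0.58 and -0.92 from left to right). The red arrowhead is the value of 2.50 for Nkx6-2 in ULI with its precursor sum of 0 set to 3 UMIs. Myrf and Tcf7l2 lie right of the 2-fold line together on the left and part in the middle.

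For Tcf7l2, the cells that met 2 neighbouring rules read values between those of the stages in ULI and ULC and below those of both stages in control. Those that met the precursor and the newly formed rule (67, 26 and 4 cells) read 674, 581 and 52.0 CPM of Tcf7l2 and 600.4, 711 and 52.0 CPM of Myrf, the control value resting on 1 UMI each. Those that met the newly formed and the mature rule read 538, 517 and 28.2 CPM of Tcf7l2, so the deep control cells with an Enpp6 or Bmp4 UMI were at the level of mature cells. Their Nkx2-2 was 28.0, 46.5 and 53.9 CPM and their Myrf 895, 890 and 626 CPM. Where all such cells were counted as mature, an alternative chosen after seeing the data, mature over precursor cells for Tcf7l2 turned to 1.12 and 1.28 in ULI and ULC and stood at -2.26 in control. Where stages were set by the marker rules, the low Tcf7l2 of mature cells in ULI and ULC applies to cells without an Enpp6 or Bmp4 UMI.

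**Figure D3:**
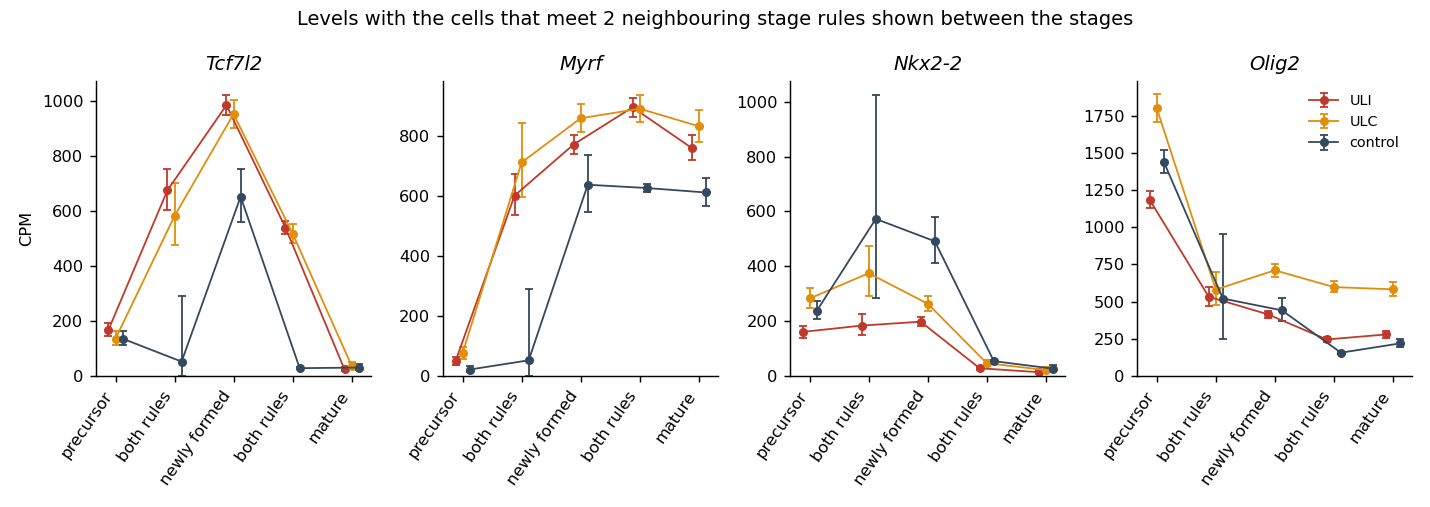
CPM of Tcf7l2, Myrf, Nkx2-2 and Olig2 with the cells that met 2 neighbouring rules placed between the stages, for ULI, ULC and control, with exact 95% Poisson intervals. For Tcf7l2 the cells that met the newly formed and mature rules read 538 and 517 CPM in ULI and ULC, against 28.2 CPM in control.

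Within newly formed cells thinned to 1000 UMIs, with 236, 476 and 12 shallower cells left out, Myrf was seen more often beside Tcf7l2 and less often beside Nkx2-2. Myrf had a UMI in 51.9%, 52.1% and 53.8% of the cells with Tcf7l2 and in 39.3%, 47.1% and 36.0% of the cells without it, in ULI, ULC and control. It had a UMI in 34.4%, 30.6% and 27.3% of the cells with Nkx2-2 and in 47.6%, 56.2% and 48.1% of the cells without it. The order in newly formed cells was the same in the 3 libraries, with 374, 141 and 38 cells. The control shares rest on 7 of 13 cells with Tcf7l2 and 3 of 11 with Nkx2-2. In thinned cells that met the newly formed and the mature rule, the order beside Tcf7l2 held in ULI alone (66.7% against 52.5%). It was reversed in ULC (51.3% against 62.1%) and control (46.2% against 48.5%). Beside Nkx2-2 the order held in ULI (54.5% against 56.6%) and was reversed in control (72.7% against 47.4%) and, from 5 cells, in ULC. No test was made because cells of a library are not replicates.

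Between the libraries, the largest difference that rested on many UMIs was in mature cells of the contralateral MVN. Olig1 read 1237 CPM (1173 to 1304) in ULC, against 462 CPM (422 to 505) in control, and Olig2 read 582 CPM (539 to 628) in ULC, against 219 CPM (191 to 249) in control. The log2 ratios were 1.42 (1.27 to 1.57) and 1.41 (1.19 to 1.64), 2 of 8 factors past 2-fold higher, where 18.1% of all measured genes were, and none lower, where 9.33% were. In ULI the same ratios over control were 0.65 and 0.35, and none of 8 factors was past 2-fold higher (background 11.5%). The mature cells of the libraries sat in different clusters: 41.5% of those in ULC were in cluster 14 and 39.0% in cluster 16, 61.4% of those in ULI were in cluster 9, and 74.7% of those in control were in cluster 1. Over all cells of a mature cluster, whichever stage rule they met, ULC over control could be had in clusters 1, 9 and 14 only. None there reached 2-fold for Olig1 or Olig2, with 0.19 and 0.28 in cluster 1, 0.51 and 0.97 in cluster 9 and 0.38 and 0.48 in cluster 14. These are not the same cells as above: cluster 1 held 674 control cells, of which 313 met the mature rule alone. Whether cluster make-up accounts for the ratios of 1.42 and 1.41 was not tested. Cluster 16 held 7 control cells, and no ratio was taken in it.

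**Figure D4:**
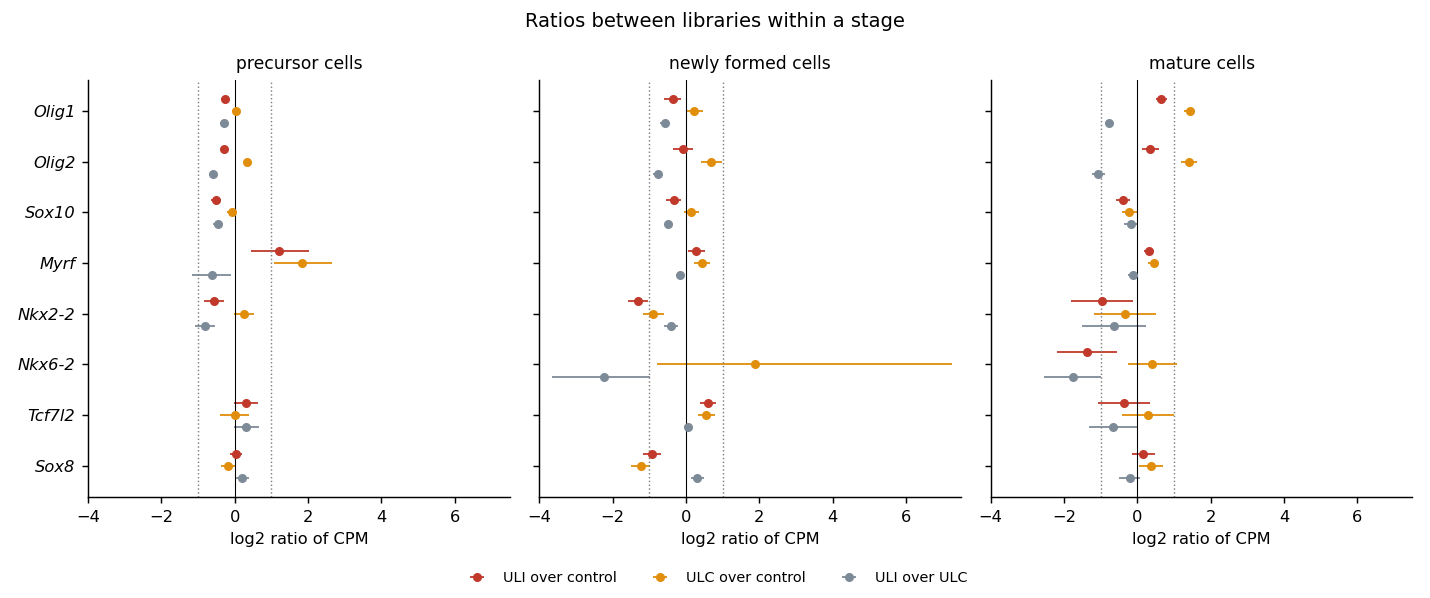
Log2 ratio of CPM between libraries within a stage for each measured gene, with exact binomial 95% intervals (horizontal lines) and dotted lines at 2-fold; ULI over control, ULC over control and ULI over ULC from top to bottom. Olig1 and Olig2 in mature cells of ULC over control stand at 1.42 and 1.41, and most other intervals lie within the dotted lines.

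In precursors, Myrf was the single factor past 2-fold from control. With 66 and 60 UMIs in ULI and ULC, against 19 in control, its ratio was 1.20 (0.44 to 2.02) for ULI over control, where 4.81% of genes were past 2-fold higher, and 1.83 (1.07 to 2.66) for ULC over control, where 11.3% were. None was past 2-fold lower, where 10.3% of genes were in ULI and 8.26% in ULC. Both calls ended where precursors were taken by cluster, with Myrf at 50.1 CPM in ULI, 70.1 CPM in ULC and 50.3 CPM in control. The other precursor ratios over control ran from -0.56 (Nkx2-2) to 0.30 (Tcf7l2) in ULI and from -0.18 (Sox8) to 0.32 (Olig2) in ULC among genes with at least 20 UMIs. None of 7 factors was past 2-fold between ULI and ULC, where 6% and 14.8% of genes were higher and lower. Of the precursors, 98.2% in ULI and 99.6% in control were in cluster 5, and 67.5% of those in ULC were in cluster 23.

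In newly formed cells the comparisons with control rest on its 50 cells. Of these, 48% were in cluster 12 and 30% in cluster 1, a mature cluster. Only 2.46% of the newly formed cells in ULI and 0.49% of those in ULC were in cluster 1. The part of this make-up in the ratios below was not tested. Nkx2-2 was lower in ULI than in control by the 2-fold mark (-1.31, -1.58 to -1.03, background 14.5%, with none higher at a background of 12%), with 198 CPM in ULI, 263 CPM in ULC and 491 CPM in control. Sox8 was lower in ULC by the same mark (-1.24, -1.51 to -0.97, background 10.6%). The remaining call, Nkx6-2 in ULC over control at 1.87 (-0.78 to 7.25, background 16.4%), rested on 1 control UMI. Taken by cluster, Nkx2-2 read 152 CPM in ULI and 248 CPM in control, and Sox8 read 235 CPM in ULC and 361.5 CPM in control, both under the 2-fold mark. Where cells that met several rules counted in each stage, both ratios turned to 0.81 and 0.58. Over all cells of cluster 12, 439 in ULI and 32 in control and whichever rule they met, the Nkx2-2 ratio was -1.09 (-1.36 to -0.82). Tcf7l2 and Myrf were above control by 0.59 and 0.28 in ULI and by 0.55 and 0.43 in ULC, under the 2-fold mark.

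Between the sides of the UL mice, Nkx6-2 was lower in ULI than in ULC in newly formed cells (-2.25, -3.65 to -0.99, background 16.2%, from 8 and 19 UMIs), with none of 8 higher (background 5.44%). In mature cells Nkx6-2 (-1.76, from 22 and 48 UMIs) and Olig2 (-1.06, -1.23 to -0.89) were lower in ULI than in ULC, beside 16.8% of all genes, and none was higher (background 7.21%). The call of Olig2 ended with TMM scaling (-0.96) and with median-of-ratios scaling (-0.99). Nkx6-2 was also past 2-fold lower in mature cells of ULI than of control (-1.36, -2.21 to -0.55, background 11.4%), from 22 and 34 UMIs. Myrf and Sox10 stayed under the 2-fold mark in each of the 3 library comparisons of mature cells. Over all cells of a mature cluster, Sox10 was below control in ULI (-0.39, -0.60 and -0.80 in clusters 1, 8 and 9). In ULC it was also below control (-0.74, -1.35 and -0.55 in clusters 1, 9 and 14), the -1.35 from 14 ULC UMIs. Myrf over control was -0.34, -0.16 and 0.16 in the same clusters of ULI. In those of ULC it was -1.02, from 29 ULC UMIs, 0.38 and 0.18. The libraries differ in preparation and depth, and those of the UL mice differ from control also in their mice, which cannot be told apart from the surgery or, between ULI and ULC, from the side.

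Outside the lineage Tcf7l2 was present in many classes, and the other factors were mostly low. Astrocyte-like cells read 126.6, 152 and 164 CPM of Olig1, 89.5, 79.1 and 95.6 CPM of Olig2 and 94.2, 109 and 115 CPM of Sox8 in ULI, ULC and control. Tcf7l2 read 133, 131 and 130 CPM in astrocyte-like cells, 115, 155 and 110 CPM in microglia-like cells and 102, 97.4 and 93.7 CPM in endothelial-like cells, close to its level in precursors and above its level in mature oligodendrocytes. The other 7 factors were at or below 11.4 CPM in microglia-like cells of each library. The source of these low values, such as free RNA, was not tested. Some higher values in small classes came from 1 cell, such as Olig1 at 144 CPM in fibroblast-like control cells, all 22 UMIs of which were in 1 of 27 cells.

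**Figure D5:**
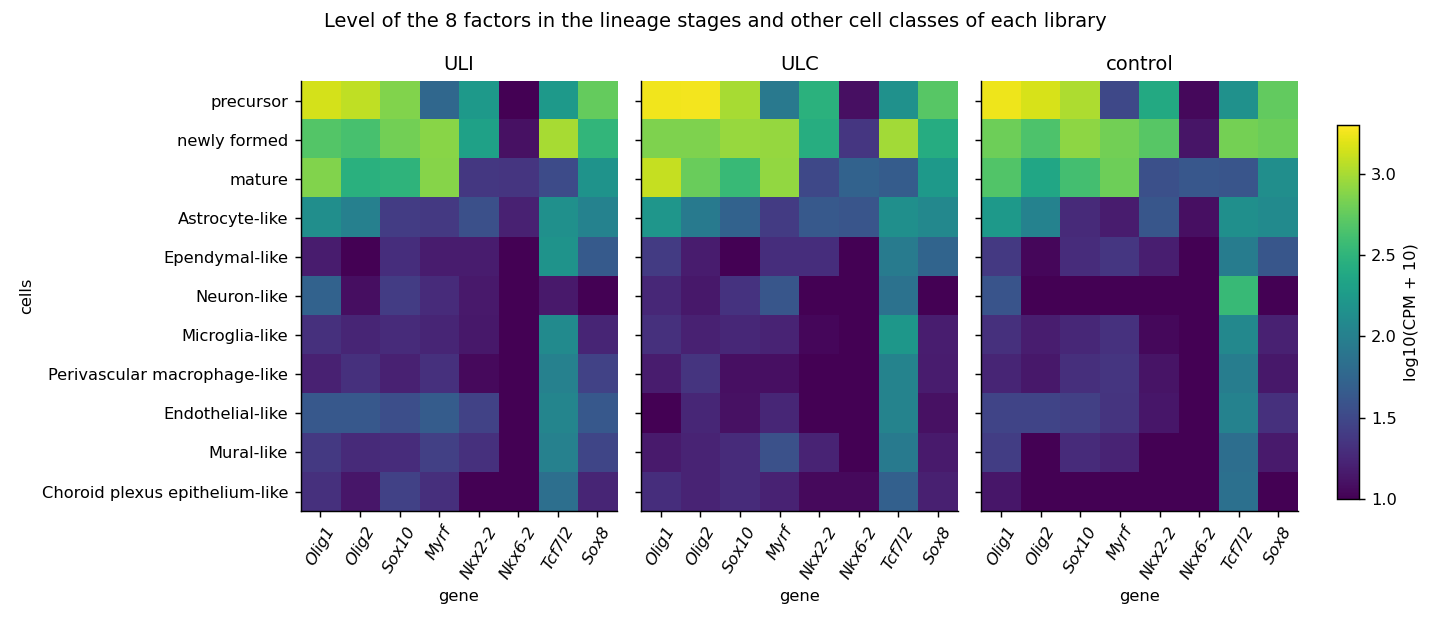
Level of each gene (columns) in the lineage stages and other cell classes (rows) of ULI, ULC and control, as log10(CPM + 10) by colour. Tcf7l2 shows colour in most rows, at 115, 155 and 110 CPM in microglia-like cells.

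Of other genes in the table, those whose level followed a factor most closely over 35 groups of cell class and library were its own relatives in some cases. By Pearson correlation of log2(CPM + 10) among 9387 genes, Olig1 and Olig2 were nearest to each other (0.96), Sox10 to 2810468N07Rik (0.96), Myrf to 1700047M11Rik (0.95), Nkx2-2 to Sox8 (0.91), Sox8 to Scrg1 (0.93), Nkx6-2 to Cacna2d4 (0.83) and Tcf7l2 to E2f8 (0.79). The groups share libraries and depth, and the values are descriptions.

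The genes around the factors were read from lists chosen by function. Of 17 measured genes known as targets of Sox10 or Myrf, 12 were past 2-fold higher in mature cells than in precursors in 3 of 3 libraries and 1 was lower (Gpr17, a receptor of the premyelinating step), with a median of 4.34 beside -0.92 for all genes, of which 6.7% were higher and 33.6% lower. Mal and Cldn11, of compact myelin and of myelin tight junctions, were among those higher, Cldn11 at 15676, 12410 and 12307 CPM in mature cells and 66.6, 47.9 and 87.3 CPM in precursors. Between precursors and newly formed cells 11 of 14 of these targets rose and none fell, where 4.17% of all measured genes rose and 12.6% fell. Mal, Gpr17 and Bcas1 are also among the markers that named the lineage clusters, so these counts are a description and no independent check.

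Of 17 measured progenitor factors 15 were lower in mature cells than in precursors and none higher, with a median of -5.77, or -4.41 with sums of 0 set to 3 UMIs, where 33.6% of all measured genes were lower and 6.7% higher and their median was -0.92. Of 17 differentiation factors, 4 rose and 6 fell between precursors and mature cells (median -0.52), beside the same 6.7% and 33.6% of all genes. St18 was at 0.740, 1.26 and 2.24 CPM in precursors, at 169, 180 and 142 CPM in newly formed cells and at 139, 148 and 95.02 CPM in mature cells, a course like that of Myrf, and its relative Myt1 ran the other way, with 414, 304 and 371 CPM in precursors and at most 2.85 CPM in mature cells. Klf13 was highest in mature cells, at 610, 519 and 276 CPM.

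Of the 3 E proteins with which Olig1 and Olig2 pair, 1 (Tcf4) was past 2-fold lower in mature cells than in precursors in 3 of 3 libraries, where 33.6% of all genes were. Tcf4 stood at 940, 979 and 1074 CPM in precursors and 389, 379 and 346 CPM in mature cells, a log2 ratio of -1.27, -1.37 and -1.63 beside a median gene at -0.92. With TMM scaling, added after seeing the data, the Tcf4 ratio was -0.38, -0.48 and -0.65, under the 2-fold mark. In the Wnt list around Tcf7l2, 3 of 13 measured genes rose and 6 fell between the same stages (median -1.15), beside 6.7% and 33.6% of all genes (median -0.92). Axin2, a feedback gene of Wnt signalling, stood at 50.3, 61.8 and 59.3 CPM in precursors, 51.6, 54.7 and 32.0 CPM in newly formed cells and 5.71, 6.19 and 4.75 CPM in mature cells, so it lost its level after the newly formed stage, as Tcf7l2 did, and had none of the rise of Tcf7l2 before it. Daam2, a Wnt co-factor of oligodendrocytes, stood at 98.9, 107 and 135 CPM in mature cells. Tmem98, a membrane protein that binds Myrf, read 193.7, 111.5 and 211 CPM in mature cells and 5.92, 5.04 and 12.3 CPM in precursors.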

How the data were processed

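The authors deposited 1 table of UMI counts for 28676 genes in 14876 barcodes (57216827 UMIs) from 3 libraries, made, per the submitters' notes, with CASAVA 1.8 and UMI-tools against mm10, with Seurat named for later steps. The aligner, annotation and cell calling were not given in the sources used here, and these differ on the platform (10X Genomics, Drop-seq or BD Rhapsody). Barcodes are running numbers, so cells shared between libraries could not be counted. ULI, ULC and control held 17428194, 12768983 and 27019650 UMIs, and 4813, 4544 and 4607 cells with at least 200 genes were kept, with medians of 2100, 931 and 3177 UMIs.

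Cells were scaled to 10000 counts, and 2000 variable genes without the 8 factors, 30 principal components and 20 neighbours gave 28 Leiden clusters (resolution 1, seed 1). A cluster was scored for each class by the mean log2(CPM + 20) of its markers, each less its mean over all clusters. It took the class with the highest score, a rule set after seeing the data. That score had to be at least 2, lead by a margin of 1 and exceed the score of the division markers by more than 1. The 11 clusters of the 3 oligodendrocyte lists formed the lineage, in which 3797 cells met 1 stage rule, 1581 met 2 or 3 and 641 met none. The marker Gabra6 was not used here. Other classes were called "like". UMIs were summed per stage and library. Log2 ratios have exact binomial 95% intervals and shares exact Clopper-Pearson intervals. A gene was past 2-fold among genes with at least 20 UMIs in the 2 sums, and a sum of 0 was set to a floor of 3 UMIs as a bound. With 1 library per condition no test was run and cells were not used as replicates. The steps were tested on simulated data.

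The members and the lists were chosen with earlier results of these data known. Named besides the 8 members are up to 4 genes per list, those with the largest absolute median log2 ratio of mature over precursor cells, and for each member the genes of most similar pattern. Gpr17 was named after its value was seen. Some genes that this rule names are not reported here. Positions are from GENCODE M21 on GRCm38 and promoters from RefSeq. Alternatives were stage sets with overlap, no lineage gate, a minimum of 500 genes, a limit of 20% mitochondrial UMIs, doublets left out (44 cells called by Scrublet in control, and the top 5% of its scores, 259 cells in ULI and 239 in ULC, where its own threshold marked under 0.5% of cells and did not work), stricter stages, scaling by TMM or by median-of-ratios, totals leaving out 4 gene groups (mitochondrial, ribosomal protein, choroid plexus and haemoglobin), means over cells, other UMI minimums, Leiden resolutions 0.5 and 2, thinning to 1000 UMIs, and stages by cluster. Python 3.11.15 was used with pandas 2.3.3, scanpy 1.11.5, scipy 1.17.1, leidenalg 0.10.2, matplotlib 3.10.9 and numpy 2.4.6, and R 4.3.3, edgeR 4.0.16 and DESeq2 1.42.0 were used for scaling factors only.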

Additional observations from a re-analysis of the deposited data

Results flagged for a closer look

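These 4 patterns drew attention because the ratio to control ran in opposite directions in 2 stages or on the 2 sides, with counting intervals that both left 0. None of these differences was tested, since each condition is 1 library. For Olig1, ULI over control was 0.65 in mature cells, against -0.28 in precursors and -0.37 in newly formed cells. For Olig2, ULI over control was 0.35 in mature cells and -0.28 in precursors. Over all cells of mature clusters 1, 8 and 9, whichever stage rule they met, ULI over control was 0.54, -0.07 and -0.24 for Olig1. For Olig2 it was 0.32, -0.22 and 0.04. Cluster 9 held 61.4% of the mature ULI cells. The part of cluster make-up in the ratios of mature cells was not tested. In precursors, the Olig2 ratio to control was -0.28 in ULI and 0.32 in ULC. For Sox8, ULC over control was 0.37 in mature cells, against -1.24 in newly formed cells, where control had 50 cells.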

How the results depend on the processing

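Of 2297 single ratios over 17 alternatives, 10 ratios past 2-fold changed direction and 486 of all moved beyond the counting interval of the ratio. With stage sets that overlap, Nkx2-2 and Tcf7l2 in newly formed over precursor control cells turned to -1.37 and -1.07, Tcf7l2 in mature over precursor cells to 0.15 in ULI and 0.062 in ULC, Nkx2-2 in ULI over control newly formed cells to 0.81 and Sox8 in ULC over control newly formed cells to 0.58. With stages by cluster, Nkx2-2 in newly formed over precursor control cells turned to -0.025 and Myrf in ULI over control precursors to -0.0062. With mature cells that carry Enpp6 or Bmp4 kept as mature, chosen after seeing the data, Tcf7l2 in mature over precursor cells turned to 1.12 in ULI and 1.28 in ULC.

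Counts of factors past 2-fold moved as follows, and beyond the construction of each alternative the cause was not tested. With overlap, newly formed over precursor gave 1 higher and 1 lower, mature over newly formed 0 and 0, mature over precursor 1 and 3, ULI over control 2, 3 and 3 from precursor to mature, ULC over control 2 in precursors and 4 in newly formed cells, with 5 factors highest in precursors and 0 in newly formed cells. Newly formed cells were then 1022 in ULI and 981 in control, and mature cells 934 in ULI and 1352 in control. Without the lineage gate, newly formed over precursor gave 0 lower, mature over precursor 1 lower, ULI over control 2 in newly formed and 2 in mature cells, ULC over control 3 in precursors and 4 in newly formed cells, and ULI over ULC 1 in precursors, with 520 ULC precursors and 99 newly formed control cells. With at least 500 genes, mature over precursor gave 1 higher, ULI over control 2 in mature cells and ULC over control 1 in newly formed cells, with 278 newly formed ULC cells and 206, 201 and 205 mature cells in ULI, ULC and control. Without the cells taken as doublets, mature over precursor gave 1 higher. Stricter stages gave 0 for ULI over control and 1 for ULC over control in newly formed cells, and 4 for ULC over control in mature cells. TMM gave 0 lower in newly formed over precursor, 1 lower in mature over precursor, 1 for ULC over control in newly formed cells and 1 for ULI over ULC in mature cells, and median-of-ratios scaling 2 lower in mature over precursor and 1 for ULI over ULC in mature cells, where Olig2 (-0.96 with TMM, -0.99 with median-of-ratios) lost the 2-fold mark in both. Totals without 4 gene groups gave 2 for ULI over control in mature cells. At least 50 UMIs gave 0 higher in mature over newly formed, 1 higher in mature over precursor, 1 for ULC over control and 0 for ULI over ULC in newly formed cells. No minimum gave 2, 2 and 1 in precursors for ULI over control, ULC over control and ULI over ULC. Leiden resolution 2 gave 1 for ULC over control in newly formed cells. Thinning gave 0 higher in mature over newly formed, 1 higher in mature over precursor, 0 for ULI over control in mature cells, 0 for ULC over control in precursors, and 0 and 1 for ULI over ULC in newly formed and mature cells. Stages by cluster gave 0 and 3 for ULI over control in precursors and mature cells, and 0 and 1 for ULC over control in precursors and newly formed cells. Keeping the Enpp6 or Bmp4 cells as mature gave 3 lower in mature over precursor, 3 for ULI over control in mature cells and 1 factor highest in newly formed cells. Means over cells gave 0 higher in mature over newly formed, 0, 2 and 2 for ULI over control from precursor to mature, and 4 and 4 for ULC over control in newly formed and mature cells. Leaving out each library in turn, also chosen after seeing the data, kept Myrf and Tcf7l2 higher and Olig1 and Olig2 lower in newly formed over precursor cells, and gave 2 to 3 lower in mature over newly formed cells.

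No paired analysis was possible because each condition was 1 pooled library. Nkx6-2, with 0 to 48 UMIs in any stage, the 50 newly formed control cells and the 19 Myrf UMIs of control precursors set the depth limits. Intervals say nothing of variation between mice.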
